A study of Homo sapiens with 6 samples.

Results

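NRF2 (gene symbol NFE2L2) is the transcription factor that switches on antioxidant and detoxifying genes, and 40 genes of that programme were followed in HCT116, a human colorectal cancer cell line, after knockdown of POU2F1. POU2F1 encodes OCT1, a transcription factor that binds octamer sequences. The 40 genes were chosen by name and function: regulators of NRF2, its classical targets, and enzymes of the glutathione, thioredoxin, peroxide, pentose phosphate, iron storage, conjugation and aldo-keto systems. Earlier results of these data were known when they were chosen, so their shares beside all tested genes are a description. All 40 were found among the 20474 annotated genes. The 3 siPOU2F1 libraries came from cells transfected with an siRNA against POU2F1, and the 3 sicontrol libraries from cells given a control siRNA. All 6 came from HCT116 cells labelled wild type and from polyA RNA collected 48 h after transfection. Whether a group's libraries were grown as separate cultures is not stated in the labels. The p-values therefore describe the variation among these 6 libraries, part of which may be technical. In bulk RNA a change in the mix of cells cannot be told apart from a change in RNA per cell. The labels name the siRNA by its target only, and whether it was 1 sequence or a pool was not analysed here.

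Under normal conditions KEAP1 holds NRF2 in the cytoplasm and delivers it for degradation. Oxidants or electrophiles disable KEAP1, and NRF2 then pairs with a small MAF protein and binds antioxidant response elements in its target genes, while BACH1 competes for the same elements. The targets supply glutathione, reduced thioredoxin and NADPH, which reduce peroxides, and proteins that store iron. Most NRF2 regulation acts on the protein, which RNA levels do not measure.

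Values are the authors' FPKM, fragments counted per kilobase of gene length and per unit of library size, and they are comparable between genes because they are per length. Absolute depth is unknown from such values. Differences are log2(FPKM + 0.5) in siPOU2F1 minus sicontrol with the standard error (SE), tested with limma in the 11831 genes that averaged at least 1 FPKM, and a gene was called at a Benjamini-Hochberg adjusted p under 0.05. POU2F1 itself had 1.87, 1.69 and 1.73 FPKM in siPOU2F1 replicates 1 to 3, against 4.16, 3.60 and 4.26 FPKM in sicontrol replicates 1 to 3. It averaged 44.0% of the sicontrol level, and the groups did not overlap (log2 difference -0.99, SE 0.14, limma adjusted p = 0.0333). Permuting the 6 values of POU2F1 exactly (two-sided) gave p = 0.1, the smallest that 3 against 3 libraries allow. The limma call of POU2F1 held without siPOU2F1 replicate 3 (adjusted p = 0.00982) and was lost when any 1 of the other 5 libraries was left out (adjusted p = 0.114 to 0.220).

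A single library stood apart. Over all tested genes siPOU2F1 replicate 3 correlated at r = 0.946 and 0.948 with the other siPOU2F1 libraries and at 0.977 with sicontrol replicate 2, although its POU2F1 level was as low as in the other knockdown libraries. On the first principal component, which held 60.4% of the variance, siPOU2F1 replicates 1 and 2 lay at 36.1 and 34.9 and replicate 3 at -20.1, against -13.2, -34.7 and -3.03 for the sicontrol libraries. The second, with 18.91%, put siPOU2F1 replicates 1 to 3 at -2.75, -4.065 and -27.85, below the sicontrol libraries at 15.99, 1.604 and 17.06. A described difference is therefore also given without it wherever leaving it out changed the call, turned the sign or moved the difference by over 1.5 times. Without it 2954 genes were called (25.0%), against 147 (1.24%) with it, and leaving out any other library left 0 to 9. Of 12 intestinal epithelial markers 7 reached a mean of 1 FPKM, EPCAM, KRT8, KRT18, KRT19, CDH1, VIL1 and CDX2, with sums of 3740 to 5166 FPKM in siPOU2F1 and 2705 to 3628 FPKM in sicontrol libraries. KRT8 averaged 1684 FPKM in siPOU2F1 and 857 FPKM in sicontrol libraries, and KRT18 2023 and 1373 FPKM. Neither keratin was called with all libraries (log2 differences 0.98 and 0.56, limma adjusted p = 0.149 and 0.087). Both were called without siPOU2F1 replicate 3 (1.23 with 0.0159 and 0.645 with 0.0148). VIL1 differed by 0.93 (limma adjusted p = 0.308), and by 1.33 with 0.037 without that library. EPCAM, KRT19, CDH1 and CDX2 differed by 0.01, 0.20, 0.11 and 0.15, with overlapping groups. Without siPOU2F1 replicate 3 these were -0.01, 0.35, 0.24 and -0.16, and none was called in either fit. Defining markers of leukocytes (PTPRC), fibroblasts (COL3A1 and DCN) and hepatocytes (APOA1, APOB and TTR) were at 0 in all 6 libraries. Some markers listed for other cell types did reach a mean of 1 FPKM: SERPINA1 of the 6 hepatocyte markers, CD68 of the 7 leukocyte markers, COL1A1 of the 8 fibroblast markers, and PAX8 and LHX1 of the 4 kidney markers, but none of the 5 endothelial markers. SERPINA1 had 162, 167 and 196 FPKM in siPOU2F1 libraries, against 255, 231 and 239 FPKM in sicontrol libraries, without overlap. Its log2 difference was -0.471 (limma adjusted p = 0.093), and -0.555 with 0.0113 without siPOU2F1 replicate 3. CD68 averaged 5.54 FPKM in siPOU2F1 and 5.42 FPKM in sicontrol libraries, and COL1A1 2.90 FPKM in siPOU2F1 and 2.198 FPKM in sicontrol libraries. The log2 difference of CD68 was 0.03, or -0.07 without siPOU2F1 replicate 3, and it was called in neither fit. That of COL1A1 was 0.27 (limma adjusted p = 0.62), and 0.60 with 0.0361 without that library. The part of the epithelial sums and of SERPINA1 in the results below was not tested.

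Of the 40 genes, those called lay in the thioredoxin and peroxiredoxin system and ran in both directions. PRDX4, the peroxiredoxin of the endoplasmic reticulum, rose to 71.7 ± 7.69 FPKM in siPOU2F1 libraries, against 32.8 ± 5.85 FPKM in sicontrol libraries (mean ± SD, n = 3 each). TXNRD1, the cytosolic reductase that keeps thioredoxin active, fell to 108.5 ± 13.0 FPKM in siPOU2F1 libraries, against 171.5 ± 4.94 FPKM in sicontrol libraries (mean ± SD, n = 3 each). With all 6 libraries NFE2L2 itself and the glutathione genes were not called, and NFE2L2 was called lower without siPOU2F1 replicate 3. Of the 40 genes 36 were expressed highly enough to be tested. PRDX4 was called higher and TXNRD1 lower, 2 of 36 (5.56%), beside 1.24% of all tested genes (0.397% higher and 0.845% lower). An unadjusted p under 0.05 was reached by 8 of the 36, beside 18.1% of all tested genes. The groups did not overlap in 11 of the 36 (30.6%), 9 higher and 2 lower in siPOU2F1. Among all tested genes they did not overlap in 23.4%, 11.3% higher and 12.0% lower. The median log2 difference of the 36 was 0.12, beside -0.013 over all tested genes.

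**Figure D1:**
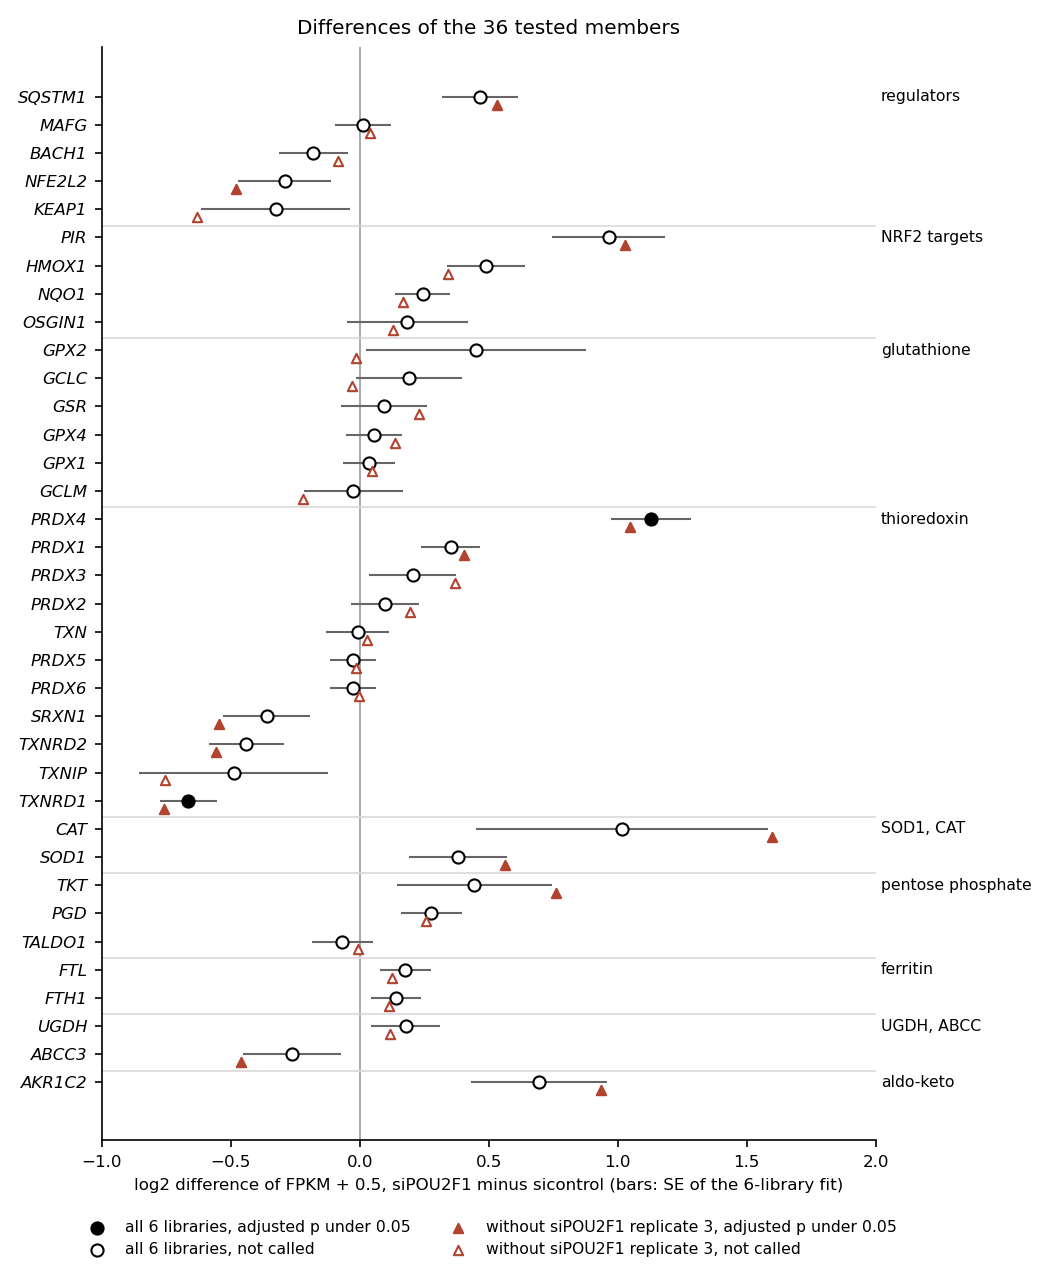
Log2 difference (siPOU2F1 minus sicontrol) with its standard error for each of the 36 tested genes, grouped by role, from the fit of 3 siPOU2F1 and 3 sicontrol libraries (circles) and from the fit without siPOU2F1 replicate 3 (triangles). Filled symbols are genes called. PRDX4 at 1.13 and TXNRD1 at -0.66 are the 2 filled circles, and 13 triangles are filled.

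Thioredoxin is a small protein that passes electrons from NADPH to peroxiredoxins, the enzymes that remove hydrogen peroxide. PRDX4 had 65.0, 70.1 and 80.1 FPKM in siPOU2F1 replicates 1 to 3, against 26.5, 33.6 and 38.2 FPKM in sicontrol replicates 1 to 3. All 3 siPOU2F1 values lay above every sicontrol value, and siPOU2F1 replicate 3 was the highest of the 6. The log2 difference was 1.13 (SE 0.16, limma adjusted p = 0.0308), and 1.05 without siPOU2F1 replicate 3 (limma adjusted p = 0.0101). PRDX1, the most abundant peroxiredoxin in these cells and a cytosolic one, had 437, 449 and 397 FPKM in siPOU2F1 libraries, against 295, 343 and 371 FPKM in sicontrol libraries. These groups did not overlap either, but the test was not passed (log2 difference 0.35, SE 0.11, limma adjusted p = 0.186, and 0.40 with 0.0473 without siPOU2F1 replicate 3). The ratio of PRDX4 to PRDX1 was 0.149, 0.156 and 0.202 in siPOU2F1 libraries, against 0.0899, 0.0981 and 0.103 in sicontrol libraries. The groups overlapped in the other peroxiredoxins. PRDX2, a cytosolic enzyme, differed by 0.10 (0.19 without siPOU2F1 replicate 3) and PRDX3, the mitochondrial one, by 0.20 (0.37 without it). PRDX5 and PRDX6 each differed by -0.03, and by -0.02 and -0.002 without that library.

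On the reductase side TXNRD1 had 99.2, 103 and 123 FPKM in siPOU2F1 replicates 1 to 3, against 171, 177 and 167 FPKM in sicontrol replicates 1 to 3. Every siPOU2F1 value lay below every sicontrol value, with siPOU2F1 replicate 3 the nearest to the sicontrol range. The log2 difference was -0.66 (SE 0.11, limma adjusted p = 0.0466), and -0.76 without siPOU2F1 replicate 3 (limma adjusted p = 0.00575). TXNRD2, its mitochondrial counterpart, had 9.21, 9.76 and 12.2 FPKM in siPOU2F1 libraries, against 15.7, 14.2 and 12.8 FPKM in sicontrol libraries. The TXNRD2 groups did not overlap, although siPOU2F1 replicate 3 and sicontrol replicate 3 lay close together (log2 difference -0.44, SE 0.15, limma adjusted p = 0.190, and -0.56 with 0.0235 without siPOU2F1 replicate 3). TXN, thioredoxin itself, had 300, 325 and 288 FPKM in siPOU2F1 libraries, against 277, 289 and 357 FPKM in sicontrol libraries. Its groups overlapped, and the log2 difference was -0.01, or 0.03 without siPOU2F1 replicate 3. The ratio of TXNRD1 to TXN was accordingly 0.331, 0.317 and 0.428 in siPOU2F1 libraries, against 0.618, 0.611 and 0.467 in sicontrol libraries, and did not overlap.

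Both calls depended on which libraries were in the fit. When 1 of the other 5 libraries was left out in place of siPOU2F1 replicate 3, limma gave adjusted p-values of 0.0846 to 0.154 for PRDX4 and 0.123 to 0.254 for TXNRD1, and the difference kept its sign each time. Without the filter on low values, limma adjusted p-values were 0.0547 for PRDX4 and 0.0699 for TXNRD1, and without a mean-variance trend TXNRD1 had 0.0716.

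SRXN1 and TXNIP complete the thioredoxin group. SRXN1, sulfiredoxin, which repairs overoxidised peroxiredoxins, had 37.1, 33.1 and 51.5 FPKM in siPOU2F1 libraries, against 48.4, 53.5 and 52.2 FPKM in sicontrol libraries. Only siPOU2F1 replicates 1 and 2 were low, and replicate 3 lay within the sicontrol range (log2 difference -0.36, limma adjusted p = 0.310, and -0.54 with 0.0151 without replicate 3). TXNIP, which binds and inhibits thioredoxin, had 173, 80.5 and 205 FPKM in siPOU2F1 libraries, against 146, 218 and 250 FPKM in sicontrol libraries. It varied as much within a group as between them (log2 difference -0.49, SE 0.37, limma adjusted p = 0.483, and -0.75 with 0.147 without siPOU2F1 replicate 3). In the thioredoxin group as a whole, 1 of 11 genes was called higher and 1 lower (18.2%, beside 1.24% of all tested genes). The groups did not overlap in 4 of the 11 (36.4%, beside 23.4%), and the median log2 difference was -0.03.

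**Figure D2:**
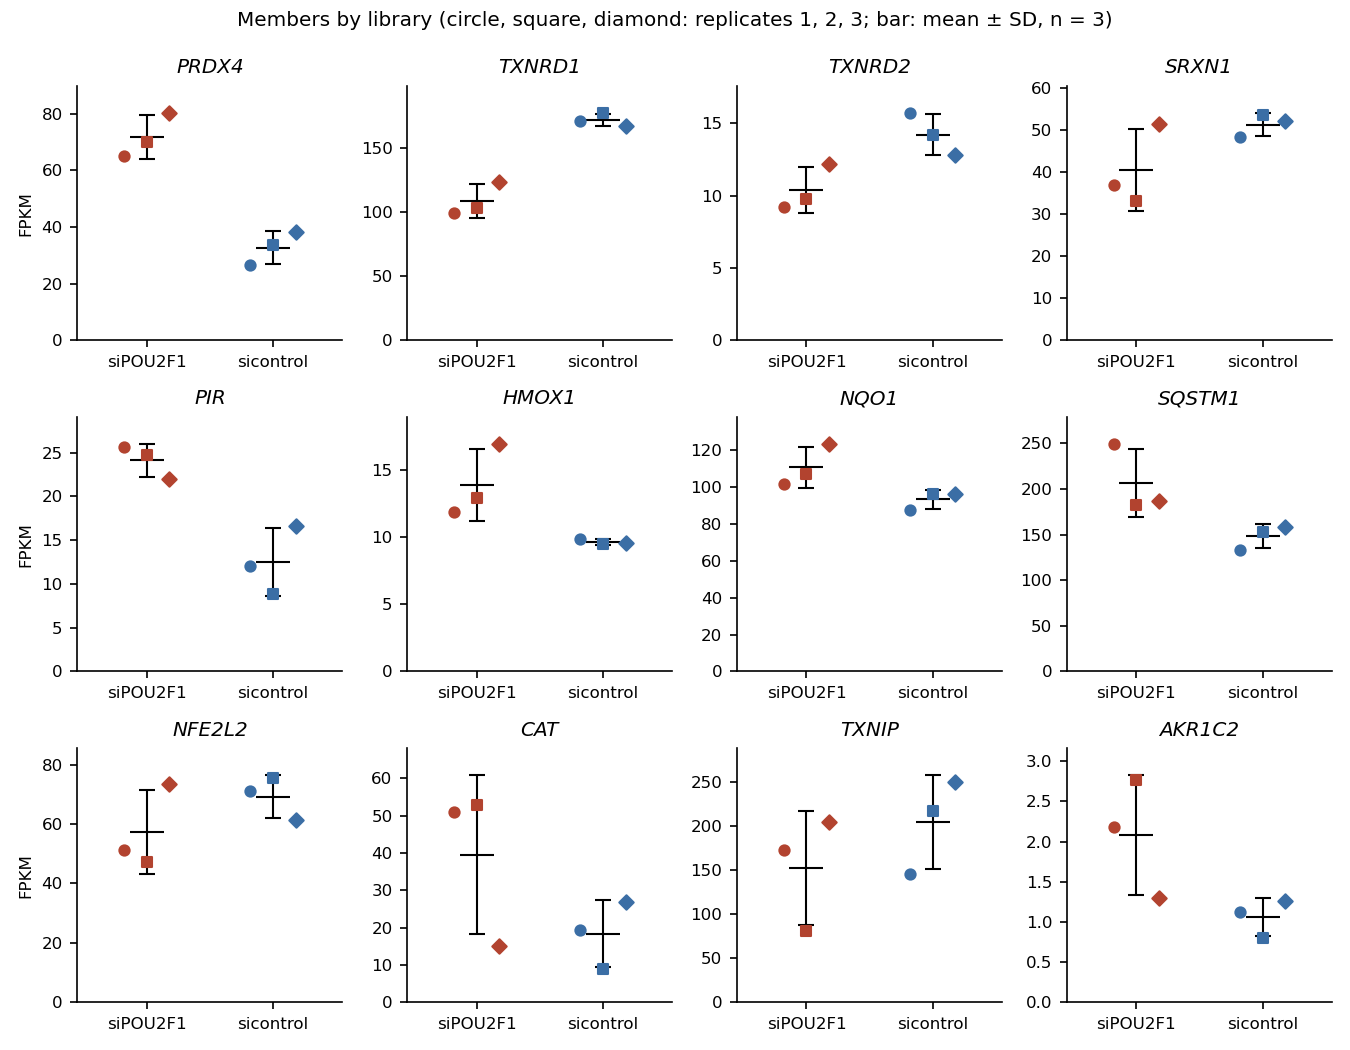
FPKM per library (points, on linear axes that start at 0) with the group mean and SD, siPOU2F1 on the left and sicontrol on the right of each panel. The genes shown are some of those whose values by library are described: PRDX4, TXNRD1, TXNRD2, SRXN1, PIR, HMOX1, NQO1, SQSTM1, NFE2L2, CAT, TXNIP and AKR1C2. The PRDX4 points lie between 65.0 and 80.1 in siPOU2F1 and between 26.5 and 38.2 in sicontrol libraries, while SRXN1 and CAT have siPOU2F1 replicate 3 away from replicates 1 and 2.

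The 4 members listed as classical targets were all at positive differences and none was called. The 12 further genes tested in that role split evenly, 6 positive and 6 negative, with a median log2 difference of 0.014. PIR, pirin, an iron-binding nuclear protein and NRF2 target, had 25.6, 24.7 and 22.0 FPKM in siPOU2F1 libraries, against 12.1, 8.80 and 16.6 FPKM in sicontrol libraries. All siPOU2F1 values were above all sicontrol values (log2 difference 0.96, SE 0.22, limma adjusted p = 0.0931, and 1.03 with 0.0270 without siPOU2F1 replicate 3). HMOX1, heme oxygenase 1, had 11.9, 12.9 and 16.9 FPKM in siPOU2F1 libraries, against 9.91, 9.49 and 9.57 FPKM in sicontrol libraries. Its sicontrol values were close together, and siPOU2F1 replicate 3 was the highest (log2 difference 0.49, SE 0.15, limma adjusted p = 0.169, and 0.34 with 0.0554 without replicate 3). NQO1, a quinone reductase and standard NRF2 readout, had 102, 107 and 123 FPKM in siPOU2F1 libraries, against 87.5, 96.4 and 96.1 FPKM in sicontrol libraries. The groups did not overlap, by a narrow margin (log2 difference 0.24, SE 0.11, limma adjusted p = 0.288). OSGIN1, an oxidative stress induced growth inhibitor, differed by 0.18 with overlapping groups, and its sign turned without sicontrol replicate 3. None of the 4 passed the test with all libraries (1.24% of all tested genes did). PIR alone did so without siPOU2F1 replicate 3, beside 25.0% of all tested genes.

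Among the regulators 1 of 5 had non-overlapping groups, beside 23.4% of all tested genes (11.3% higher in siPOU2F1). That 1 was SQSTM1, the p62 adaptor that binds KEAP1 and sends it to autophagy. It had 249, 183 and 186 FPKM in siPOU2F1 libraries, against 133, 152 and 158 FPKM in sicontrol libraries (log2 difference 0.47, SE 0.15, limma adjusted p = 0.173, and 0.53 with 0.0466 without siPOU2F1 replicate 3). Its highest value was in siPOU2F1 replicate 1. NFE2L2 had 51.2, 47.3 and 73.4 FPKM in siPOU2F1 libraries, against 71.0, 75.3 and 61.2 FPKM in sicontrol libraries. The low values were in siPOU2F1 replicates 1 and 2, and replicate 3 lay within the sicontrol range (log2 difference -0.29, limma adjusted p = 0.405, and -0.48 with 0.0293 without replicate 3). KEAP1 was likewise low in siPOU2F1 replicates 1 and 2 alone, with 10.8, 10.1 and 20.2 FPKM in siPOU2F1 libraries, against 14.8, 21.6 and 13.9 FPKM in sicontrol libraries (log2 difference -0.33, limma adjusted p = 0.546, and -0.63 with 0.0553 without replicate 3). The ratio of NFE2L2 to KEAP1 therefore overlapped, at 4.75, 4.69 and 3.64 in siPOU2F1 libraries, against 4.80, 3.48 and 4.39 in sicontrol libraries. BACH1, the repressor, differed by -0.18, and MAFG, a small MAF partner of NRF2, by 0.01 (-0.09 and 0.04 without siPOU2F1 replicate 3).

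Glutathione synthesis and recycling showed no called gene and no gene with non-overlapping groups among 6. Of all tested genes 1.24% were called and 23.4% had non-overlapping groups. GCLC and GCLM, the catalytic and modifier subunits of the rate-limiting ligase, differed by 0.19 and -0.03. The first rested on siPOU2F1 replicate 3, since without it GCLC differed by -0.03 and GCLM by -0.22. Their ratio, GCLC to GCLM, did separate, at 1.19, 1.24 and 1.28 in siPOU2F1 libraries, against 1.10, 1.07 and 1.01 in sicontrol libraries. Of the other ratios computed and not printed, TXNRD1 to TXNRD2 separated, while FTH1 to FTL, TXN to TXNIP and NFE2L2 to BACH1 overlapped. How often the ratio of any gene pair separates was not tested. GSR, which reduces oxidised glutathione, differed by 0.09, GPX1, the common cytosolic peroxidase, by 0.03, and GPX4, which reduces lipid peroxides, by 0.05. Without siPOU2F1 replicate 3 these were 0.23 for GSR, 0.05 for GPX1 and 0.13 for GPX4, none of them called. GPX2, the gut peroxidase, had 0.929, 0.931 and 3.27 FPKM in siPOU2F1 libraries, against 0.542, 1.11 and 1.29 FPKM in sicontrol libraries. That difference of 0.45 rested on siPOU2F1 replicate 3, without which it was -0.01, and the gene passed the filter through that library.

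SOD1, the cytosolic superoxide dismutase, had 219, 202 and 144 FPKM in siPOU2F1 libraries, against 132, 128 and 171 FPKM in sicontrol libraries (log2 difference 0.38, limma adjusted p = 0.330, and 0.56 with 0.0342 without siPOU2F1 replicate 3). CAT, catalase, had 50.9, 52.7 and 15.1 FPKM in siPOU2F1 libraries, against 19.5, 8.90 and 26.9 FPKM in sicontrol libraries. In both genes siPOU2F1 replicates 1 and 2 lay above every sicontrol library and replicate 3 did not. CAT had the second largest log2 difference of the 36, 1.02, but also a wide spread (SE 0.57, limma adjusted p = 0.366), and 1.60 with an adjusted p of 0.0340 without replicate 3.

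The pentose phosphate pathway supplies the NADPH that both thiol systems use. PGD, its second dehydrogenase, had 63.7, 57.9 and 63.6 FPKM in siPOU2F1 libraries, against 44.0, 54.5 and 54.7 FPKM in sicontrol libraries. All 3 siPOU2F1 values were the higher ones (log2 difference 0.28, SE 0.12, limma adjusted p = 0.281). TKT, transketolase, had 179, 236 and 106 FPKM in siPOU2F1 libraries, against 125, 96.0 and 147 FPKM in sicontrol libraries. As for CAT, siPOU2F1 replicates 1 and 2 were the 2 highest of the 6 and replicate 3 lay within the sicontrol range (log2 difference 0.44, limma adjusted p = 0.439, and 0.76 with 0.0376 without replicate 3). TALDO1, transaldolase, differed by -0.07, or -0.007 without siPOU2F1 replicate 3.

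FTH1 and FTL, the heavy and light chains of the iron-storing ferritin shell, were the most abundant of the 40. FTL had 1217, 1300 and 1400 FPKM in siPOU2F1 libraries, against 1074, 1208 and 1185 FPKM in sicontrol libraries. FTH1 had 2737, 2410 and 2724 FPKM in siPOU2F1 libraries, against 2292, 2358 and 2484 FPKM in sicontrol libraries. The FTL groups did not overlap and the FTH1 groups did, and neither gene was called (log2 differences 0.18 and 0.14, limma adjusted p = 0.371 and 0.449). The sign for FTH1 turned under quantile normalization. Together the 2 chains made up 53.8% to 57.9% of the summed FPKM of the 40 genes in siPOU2F1 libraries and 53.3% to 55.7% in sicontrol libraries. FTH1 and FTL also have 25 and 16 annotated pseudogenes, and 62.4% of the exonic bases of FTH1 overlap BEST1 on the opposite strand, which averaged 36.7 FPKM in siPOU2F1 and 60.0 FPKM in sicontrol libraries. TXN has 7 pseudogenes, PRDX2 and PRDX3 4 each, SOD1 3, and GPX1 and AKR1B10 2 each. PRDX1, PRDX4, SQSTM1 and PGD have 1 each. Other members share exonic bases too: SRXN1 85.0% with AL121758.1 on the same strand, listed at 0 in siPOU2F1 libraries and at 0.0402 FPKM in sicontrol libraries, PRDX1 24.9% with MMACHC on the opposite strand and SQSTM1 20.7% with MRNIP on the opposite strand. NQO1 shares 17.7% with AC092115.2 on the opposite strand and NFE2L2 17.6% with AC019080.1 on the same strand. Some further members share smaller parts. How reads were shared among such copies is not given in the sources used here, so these levels, the ferritin ones above all, are uncertain. The strand setting of the counting is likewise not given, although the library kit was a directional one.

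The 4 genes ABCC2, AKR1B10, AKR1C1 and AKR1C3, stayed under 1 FPKM in every library and were not tested. AKR1C2, an aldo-keto reductase that acts on steroids, had 2.19, 2.77 and 1.29 FPKM in siPOU2F1 libraries, against 1.13, 0.797 and 1.26 FPKM in sicontrol libraries. The groups were just separate, since siPOU2F1 replicate 3 exceeded sicontrol replicate 3 by little (log2 difference 0.69, SE 0.26, limma adjusted p = 0.235, and 0.93 with 0.0221 without replicate 3). AKR1C1, AKR1C2 and AKR1C3 are close paralogs, so the split of reads among them is uncertain. UGDH, which makes the sugar donor for glucuronidation, differed by 0.18, or 0.12 without that library. ABCC3, a conjugate exporter, had 17.5, 15.6 and 25.2 FPKM in siPOU2F1 libraries, against 20.2, 24.5 and 24.4 FPKM in sicontrol libraries, with overlapping groups (log2 difference -0.26, limma adjusted p = 0.468, and -0.46 with 0.0410 without replicate 3).

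**Figure D3:**
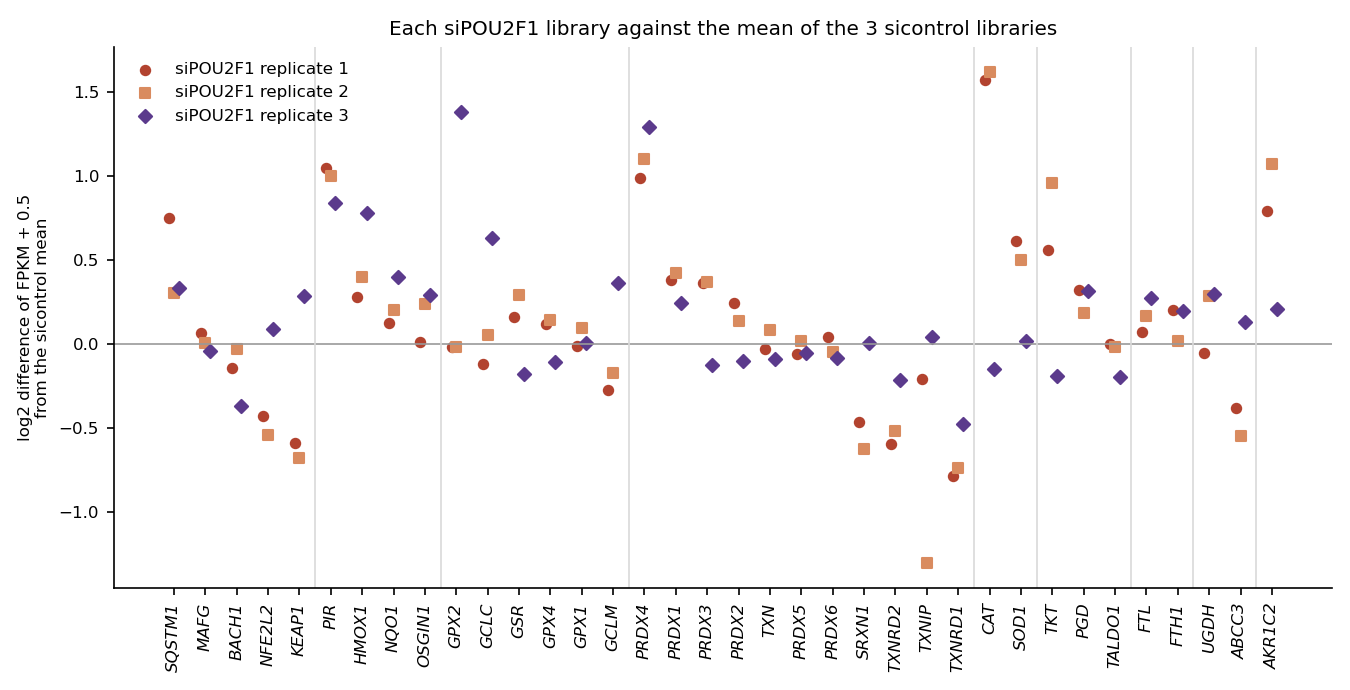
Log2 difference of each siPOU2F1 library from the sicontrol mean, for the genes grouped by role, with siPOU2F1 replicates 1, 2 and 3 marked separately. Replicate 3 lies on the same side as replicates 1 and 2 for PRDX4 and TXNRD1 and on the other side of the sicontrol mean for CAT and TKT, though within the sicontrol range.

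Taking the 3 knockdown libraries one by one, siPOU2F1 replicates 1 and 2 both lay outside the sicontrol range in 21 of the 36 genes (58.3%), 15 above it and 6 below, beside 62.6% of all tested genes. siPOU2F1 replicate 3 lay on the same side in 11 of those 21 (52.4%), beside 37.3% of such genes among all tested, within the sicontrol range in 8 and on the opposite side in 2, GPX4 and ABCC3. Without siPOU2F1 replicate 3, 13 of the 36 genes were called (36.1%), beside 25.0% of all tested genes. The 8 higher were PRDX4, PIR, SQSTM1, PRDX1, SOD1, CAT, TKT and AKR1C2, beside 9.29% of all tested genes. The 5 lower were TXNRD1, TXNRD2, SRXN1, NFE2L2 and ABCC3, beside 15.7% of all tested genes. Leaving out each of the other libraries in turn left none of the 36 called by limma, and 1176 to 2046 of all tested genes then had an unadjusted p under 0.05.

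**Figure D4:**
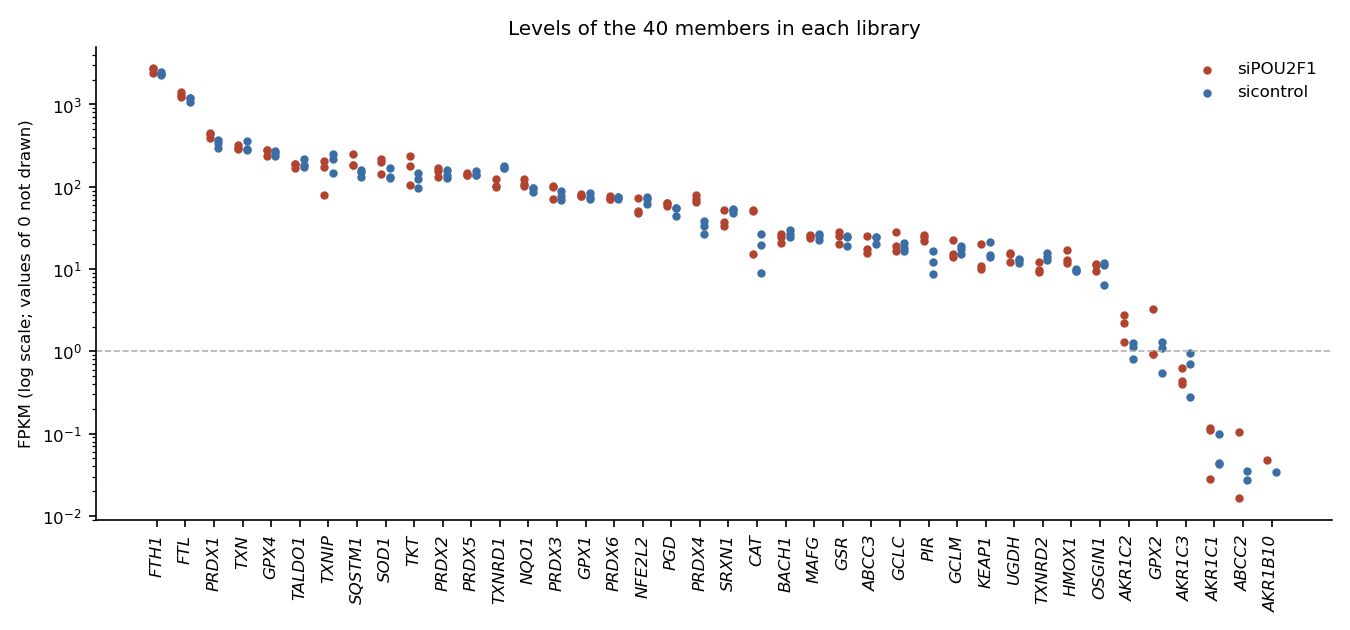
FPKM in each siPOU2F1 library (left of each pair) and each sicontrol library (right) for the 40 genes, ordered by mean level, on a log axis with a dashed line at 1 FPKM and values of 0 not drawn. FTH1 and FTL are highest, with means of 2624 and 1305 FPKM in siPOU2F1 libraries and 2378 and 1155 FPKM in sicontrol libraries, and ABCC2, AKR1B10, AKR1C1 and AKR1C3 lie below the line.

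Beyond the 40, 100 of 101 further genes of the same systems, listed by function, were in the files and 87 were tested. None was called by limma, beside 1.24% of all tested genes. An unadjusted p under 0.05 was reached by 12 (18.1% of all tested genes did), and 42 had positive and 45 negative differences. In 13 of them (14.9%) the groups did not overlap, 5 higher and 8 lower in siPOU2F1, beside 23.4% of all tested genes, 11.3% higher and 12.0% lower. The lowest p-value in the pentose phosphate group was that of RPIA, ribose 5-phosphate isomerase, with 32.3, 33.8 and 29.9 FPKM in siPOU2F1 libraries, against 16.9, 19.8 and 22.5 FPKM in sicontrol libraries (log2 difference 0.69, limma adjusted p = 0.0635). Next among all 87 came ME1, the cytosolic malic enzyme that makes NADPH, with 19.4, 20.3 and 18.1 FPKM in siPOU2F1 libraries, against 13.3, 10.2 and 13.5 FPKM in sicontrol libraries (log2 difference 0.63, limma adjusted p = 0.0869). The siPOU2F1 values of both genes lay above the sicontrol values in all 3 libraries, and both were called without siPOU2F1 replicate 3 (0.74 with adjusted p = 0.0151 for RPIA and 0.67 with 0.0225 for ME1, limma). CHAC1, which breaks down glutathione, had 3.68, 3.64 and 18.8 FPKM in siPOU2F1 libraries, against 18.7, 27.3 and 14.7 FPKM in sicontrol libraries. Its difference of -1.54 (limma adjusted p = 0.242) was -2.27 with an adjusted p of 0.00575 without siPOU2F1 replicate 3, which lay within the sicontrol range. By role, the genes with the lowest p-values were not called either, and their log2 differences ran in both directions. Among regulators MAFF, a small MAF protein, differed by -0.36, CUL3, the ubiquitin ligase scaffold that KEAP1 recruits, by 0.18 and NFE2L1, a relative of NRF2, by 0.18. Of the targets, SLC48A1, a heme transporter, differed by -0.24 and ALDH3A1, an aldehyde dehydrogenase, by 0.33. In glutathione metabolism GSS, glutathione synthetase, differed by -0.34 and GSTA4, a glutathione transferase, by 0.48, both with groups that did not overlap. TXNDC12, a thioredoxin-like protein of the endoplasmic reticulum, differed by -0.31. SOD2, the mitochondrial superoxide dismutase, differed by 0.33, CCS, the copper chaperone of SOD1, by -0.22 and AIFM2, which suppresses ferroptosis, by -0.15. SHPK, a sedoheptulose kinase, differed by 0.28. In iron handling IREB2 and ACO1, the iron regulatory proteins, differed by -0.34 and 0.52. Exporters ABCC5, ABCC4 and ABCB6 differed by 0.26, -0.17 and -0.08, and the reductases AKR1E2, AKR7A2 and AKR1A1 by 0.19, -0.03 and 0.03. Limma adjusted p-values of the genes in these sentences were 0.190 or higher with all libraries. Leaving out siPOU2F1 replicate 3 gave -0.32 for SLC48A1, which was then called (limma adjusted p = 0.0428). That fit gave 0.03 for NFE2L1, -0.29 for AIFM2, -0.35 for ABCC4, -0.30 for ABCB6, 0.28 for AKR1E2 and 0.06 for AKR1A1, none of them called. Without siPOU2F1 replicate 3, 14 of the 87 were called (16.1%), 6 higher and 8 lower, beside 25.0% of all tested genes.

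Promoter windows were searched for the elements that NRF2 and octamer factors are known to bind, and for an E-box. RefSeq windows on GRCh38.p14, from 250 bases before to 50 bases after a start site, matched 32 of the 40 genes, with 46 windows, and PRDX1, PRDX6, HMOX1, SOD1, GSR, FTH1, ABCC3 and AKR1B10 had no entry. On either strand, TGACNNNGC, the core of the antioxidant response element, was found in 7 of these 46 windows (15.2%), in GCLM, GPX2, KEAP1, PGD, PIR and TXNRD1, beside 13.3% of 35116 windows of the same length. CACGTG, an E-box that is the same on both strands, was found in 4 of 46 windows (8.70%), in GPX1, MAFG, PRDX3 and PRDX4, beside 7.26%. The octamer ATGCAAAT was found in PRDX5 alone, beside 1.77% of all windows. The longer element TGACTCAGC, an instance of the core, was found in PIR alone, beside 0.561%. The windows of TXNRD1, which fell, of PRDX4, which rose, of PIR, whose groups did not overlap, and of GCLM, whose groups did, are printed 5′ to 3′ on the gene's strand. Capitals mark TGACNNNGC on either strand, or CACGTG in PRDX4. A match is a description of the letters, not a bound site, and both TXNRD1 and PIR carry the core.
TXNRD1 first start, chr12:104215529-104215828, plus strand: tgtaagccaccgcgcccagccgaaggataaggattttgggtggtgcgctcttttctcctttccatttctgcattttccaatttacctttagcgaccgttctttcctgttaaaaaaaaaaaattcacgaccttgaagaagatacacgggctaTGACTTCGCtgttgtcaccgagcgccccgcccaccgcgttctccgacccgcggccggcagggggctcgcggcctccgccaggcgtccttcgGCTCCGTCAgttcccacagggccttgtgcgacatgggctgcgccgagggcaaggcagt
TXNRD1 second start, chr12:104286782-104287081, plus strand: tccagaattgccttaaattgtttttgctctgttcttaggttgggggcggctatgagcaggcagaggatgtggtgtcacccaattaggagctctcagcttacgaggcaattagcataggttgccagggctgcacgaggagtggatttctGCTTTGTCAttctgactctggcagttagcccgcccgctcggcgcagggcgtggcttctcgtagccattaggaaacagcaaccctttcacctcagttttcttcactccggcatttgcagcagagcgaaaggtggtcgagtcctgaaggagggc
PIR, chrX:15493284-15493583, minus strand: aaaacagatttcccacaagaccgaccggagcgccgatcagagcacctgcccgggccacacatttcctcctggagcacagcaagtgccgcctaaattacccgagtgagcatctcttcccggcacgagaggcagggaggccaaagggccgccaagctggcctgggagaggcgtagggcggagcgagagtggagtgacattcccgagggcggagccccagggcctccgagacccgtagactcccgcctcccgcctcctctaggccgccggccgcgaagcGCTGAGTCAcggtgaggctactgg
GCLM, chr1:93909381-93909680, minus strand: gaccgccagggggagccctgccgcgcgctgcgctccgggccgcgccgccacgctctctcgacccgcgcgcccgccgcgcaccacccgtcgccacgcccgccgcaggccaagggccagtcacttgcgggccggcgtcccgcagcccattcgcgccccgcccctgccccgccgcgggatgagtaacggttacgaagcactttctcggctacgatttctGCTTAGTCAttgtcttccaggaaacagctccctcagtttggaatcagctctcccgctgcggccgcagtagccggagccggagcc
PRDX4, chrX:23667243-23667542, plus strand: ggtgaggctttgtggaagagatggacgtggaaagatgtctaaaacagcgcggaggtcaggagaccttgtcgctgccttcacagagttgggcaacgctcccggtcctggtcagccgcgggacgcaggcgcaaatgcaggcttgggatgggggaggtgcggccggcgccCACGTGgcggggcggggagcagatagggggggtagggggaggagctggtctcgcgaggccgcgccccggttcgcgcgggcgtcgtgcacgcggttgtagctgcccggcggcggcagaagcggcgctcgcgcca

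In the annotation of the same build (GENCODE 29), TXNRD1 lies at chr12:104215779-104350305 on the plus strand, PRDX4 at chrX:23664262-23686399 on the plus strand and PIR at chrX:15384799-15493564 on the minus strand, and no exon of the 3 overlaps another listed gene. Earlier analysis of these libraries had picked 2 words of 7 letters, AACTGCA and AGAATGA, from 3′ UTRs of genes with low values in siPOU2F1, so their counts here are a description. AACTGCA occurs in the 3′ UTR of 1 of the 36 tested genes, BACH1 (2.78%), beside 12.4% of 11518 genes searched and 51.5% of the genes called lower. AGAATGA occurs in BACH1, GPX2 and PRDX6 (8.33%), beside 14.9% of genes searched and 35.4% of the genes called lower. TXNRD1, the gene called lower, holds neither word in the transcript searched. For each gene that was the annotated transcript with the longest coding sequence, and other transcripts were not searched. BACH1, with 24.4, 26.5 and 20.8 FPKM in siPOU2F1 libraries and 30.2, 26.8 and 24.4 FPKM in sicontrol libraries, was not called. Its site at chr21:29343142-29343148 on the plus strand is shown with AACTGCA in capitals.
BACH1: ggagaatgaaAACTGCAgcatatcaga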

How the data were processed

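FPKM values were deposited by the authors, 1 table for each library. Per the submitters' processing notes, HISAT2 2.0.4, Bowtie2 2.2.5, StringTie 2.1.2 and hg38 were used; which step each served, and with what annotation and strand setting, is not given in the sources used here. RNA was made into libraries from 2 µg of total RNA with a directional polyA kit, per the labels' protocols. The tables list 22782 features, and 20474 annotated genes were used. Depth relative to sicontrol replicate 1, read from the lowest FPKM steps of 8 to 16 genes, was 0.778 to 0.972.

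Values were used as log2(FPKM + 0.5), which understates fold changes of low genes. The 11831 genes averaging at least 1 FPKM were tested in R 4.3.3 using limma 3.58.1; the model held group alone, the variance followed a trend on the mean, and p-values were adjusted over all of these genes. The script was tested on simulated data. Members and lists were chosen with earlier results of these data known. Values by library are given for members called, not overlapping or at least 0.5 in log2 difference, and for some others picked after their values were seen; of the further genes, those with the lowest p per role. Alternatives were another pseudocount, filter, scaling, trend or weighting, a replicate block, and leaving out each library.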

Additional observations from a re-analysis of the deposited data

How the results depend on the processing

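With 3 libraries per group the calls are few and depend on the processing. Over all tested genes, the main fit called 47 higher and 100 lower. With no filter on low values these were 24 and 48, without a mean-variance trend 23 higher, with library weights 2651 and 3312, with the replicate block 0 and 0, and leaving out 1 library gave 0 to 1099 and 0 to 1855. Of the 36 tested members, the main fit called 1 higher and 1 lower. Library weights gave 13 and 6, no filter 0 and 0, no trend 0 lower, the replicate block 0 and 0, and leaving out 1 library 0 to 8 and 0 to 5. Of the further pathway genes, 0 and 0 in the main fit became 19 and 18 with library weights and 0 to 6 and 0 to 8 leaving out 1 library. POU2F1 kept a log2 difference of -0.99 with no filter (limma adjusted p = 0.065) and with the block (0.297), and ranged from -1.06 to -0.95 leaving out 1 library, where its call held without siPOU2F1 replicate 3 and was lost in the other 5 fits (adjusted p = 0.114 to 0.220). The weights ran from 0.145 for siPOU2F1 replicate 3 to 3.82, so that library counted least in the weighted fit.

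Of 574 member values under alternatives, 528 kept their call and direction or moved by less than 1 SD, 15 lost a call and 28 gained 1, 11 of them without siPOU2F1 replicate 3. No called value changed sign; 12 members not called did so under some alternative, GPX2 among them. POU2F1, GPX2 and AKR1C2 have no value under a filter of 5 FPKM. Deviations of same-numbered libraries from their group means correlated at 0.133, -0.545 and -0.512, so the numbers were not taken as pairs and the replicate block is an alternative only. Values of low genes carry the least precision.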

Other observations

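Of the 87 further genes tested, 8 were called lower by limma without siPOU2F1 replicate 3, beside 15.7% of all tested genes. None of the 8 was called with all libraries: CHAC1, TIGAR, SLC7A11, TFRC, SLC3A2, SESN2, SLC48A1 and GLRX3. The values of 3 of them, picked as examples, follow. SLC7A11, which imports cystine for glutathione, had 2.50, 3.76 and 12.7 FPKM in siPOU2F1 libraries, against 10.2, 12.03 and 6.36 FPKM in sicontrol libraries. TIGAR, a fructose bisphosphatase that sends glucose into the pentose phosphate pathway, had 2.11, 2.19 and 5.65 FPKM in siPOU2F1 libraries, against 6.58, 7.46 and 5.07 FPKM in sicontrol libraries. TFRC, the transferrin receptor, had 45.2, 43.8 and 75.5 FPKM in siPOU2F1 libraries, against 66.6, 86.7 and 62.8 FPKM in sicontrol libraries. None was called with all libraries by limma (adjusted p = 0.427, 0.221 and 0.363), and each was called without siPOU2F1 replicate 3 (adjusted p = 0.0176, 0.00786 and 0.0236). SLC7A11, SLC3A2, SESN2 and GLRX3 are named after their values were seen. SLC3A2, the partner chain of SLC7A11, and SESN2, a stress-induced sestrin, differed by -0.62 and -0.97 in that fit.

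TXNRD3 and TXNL1, relatives of thioredoxin reductase and thioredoxin, were instead highest in siPOU2F1 replicates 1 and 2. TXNRD3 had 10.0, 9.95 and 6.21 FPKM in siPOU2F1 libraries, against 5.98, 4.70 and 6.36 FPKM in sicontrol libraries. TXNL1 had 16.1, 16.6 and 11.4 FPKM in siPOU2F1 libraries, against 11.0, 10.9 and 10.4 FPKM in sicontrol libraries. Neither was called with all libraries by limma (adjusted p = 0.239 and 0.247), and both were called without siPOU2F1 replicate 3 (log2 differences 0.77 and 0.58, adjusted p = 0.0176 and 0.0133).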
